A study of Mus musculus with 24 samples.

Results

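MspI fragments that cross an exon edge away from CpG islands made up 1501 of the 65535 fragments in the reduced representation bisulfite sequencing (RRBS) table of brown adipose tissue (BAT). They were chosen from the deposited annotation: the region class had to be exon_intron_boundary or intron_exon_boundary, the fragment could not lie in the core of a CpG island, and it had to lie over 2000 bp downstream of the start of the gene named for it. The first class held 761 fragments, the second 740, and together they fell in 870 named genes. Their length ran from 30 to 220 bp, and 67.8% of them were over 100 bp long. Fragments under the same island and distance limits that lay wholly in an exon (2755) or wholly in an intron (13250) served for comparison.

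The study asked whether perinatal exposure to the insecticide DDT changes DNA methylation in BAT. Dams of the C57BL/6J strain were gavaged from mid-gestation until shortly after birth with DDT, given as its o,p' and p,p' isomers together, or with the olive oil in which it was dissolved (VEH), and BAT was collected from their female pups at PND 12. Each of the 12 DDT and 12 VEH libraries was a pool of the female littermates of 1 litter, so a difference between cells or between pups could not be seen. No check of the tissue was made with these calls, and the label BAT was taken as given.

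Pre-mRNA splicing joins exons by recognising a donor site at the start of each intron, which nearly always reads GT, and an acceptor site at its end, which reads AG. Within genes of mammals most CpGs outside islands are methylated, exons usually more than the introns around them, and methylation in gene bodies has been linked to which exons are included in the transcript. In RRBS the enzyme MspI cuts at CCGG, short fragments are sequenced after bisulfite conversion, and each CpG that kept its cytosine counts as methylated.

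The names of the 2 classes were first read against the genome, because they could mean the order along the chromosome or along the transcript. In GENCODE M21, 1461 of the 1501 fragments held an exon edge of any gene and 1310 held a single edge of the named gene. The order matched that of the plus strand of the chromosome in 1308 of these 1310. Each class therefore mixed the 2 kinds of splice site: exon_intron_boundary held 326 donors and 329 acceptors, and intron_exon_boundary held 352 donors and 303 acceptors. The intron began with GT at 98.2% of the 678 donors, with GC at 9 and with GA at 3, and ended with AG at 99.8% of the 632 acceptors. A median of 44.7% of the bases of a fragment were exonic, and 424 of the 1310 (32.4%) had a CpG within 10 bases of the edge.

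The fragments below show what such an edge looks like, read from the GRCm38 sequence 5′ to 3′ on the strand of the transcript, with the first or last 2 bases of the intron in capitals. On plus-strand genes the first bases, and on minus-strand genes the last, are those of the MspI site. The first 4 were among those with the lowest or highest levels, at a donor of Dab2ip (exon_intron_boundary, plus strand, chr2:35661591-35661643), an acceptor of Kirrel (exon_intron_boundary, minus strand, chr3:87088175-87088292), a donor of Nkx2-2 (intron_exon_boundary, minus strand, chr2:147184199-147184256) and an acceptor of Agap1 (intron_exon_boundary, plus strand, chr1:89843015-89843082).
Dab2ip: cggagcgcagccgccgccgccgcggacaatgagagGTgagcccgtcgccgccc
Kirrel: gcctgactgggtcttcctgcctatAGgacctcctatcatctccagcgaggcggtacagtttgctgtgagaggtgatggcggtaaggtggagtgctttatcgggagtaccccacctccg
Nkx2-2: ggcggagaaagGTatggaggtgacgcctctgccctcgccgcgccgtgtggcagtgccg
Agap1: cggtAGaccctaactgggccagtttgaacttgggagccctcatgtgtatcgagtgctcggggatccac

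The next 4 flank single exons of Gpr155 (minus strand, donor fragment chr2:73364150-73364196, acceptor fragment chr2:73364197-73364362) and Sgms2 (minus strand, donor fragment chr3:131336154-131336190, acceptor fragment chr3:131336191-131336319), where the sides of 1 exon differed most. The donor fragments are the ones of class intron_exon_boundary.
Gpr155 donor: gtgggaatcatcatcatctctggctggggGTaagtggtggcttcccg
Gpr155 acceptor: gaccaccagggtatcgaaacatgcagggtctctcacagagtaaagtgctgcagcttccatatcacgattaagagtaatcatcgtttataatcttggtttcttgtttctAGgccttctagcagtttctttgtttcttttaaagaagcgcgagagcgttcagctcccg
Sgms2 donor: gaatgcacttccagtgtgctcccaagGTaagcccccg
Sgms2 acceptor: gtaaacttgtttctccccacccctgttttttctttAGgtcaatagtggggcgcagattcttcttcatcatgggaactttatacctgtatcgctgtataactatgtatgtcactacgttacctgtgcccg

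The last 3 had the smallest p for DDT against VEH: an acceptor of Pdcl3 (intron_exon_boundary, plus strand, chr1:38996017-38996235) and donors of Dst (exon_intron_boundary, plus strand, chr1:34257938-34257967) and Nup188 (exon_intron_boundary, plus strand, chr2:30343549-30343636).
Pdcl3: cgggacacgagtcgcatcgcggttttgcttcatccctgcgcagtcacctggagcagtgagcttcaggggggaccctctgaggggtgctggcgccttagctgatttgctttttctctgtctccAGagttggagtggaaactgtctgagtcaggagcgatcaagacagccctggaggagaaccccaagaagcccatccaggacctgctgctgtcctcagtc
Dst: cggGTgagaatgggaggctgagccctagac
Nup188: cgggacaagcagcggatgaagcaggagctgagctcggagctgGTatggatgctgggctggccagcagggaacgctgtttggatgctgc

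The libraries held 8371958 to 14124652 CpG calls, of which 0.670% to 1.41% fell on boundary fragments. The methylation level, in percent, is the share of methylated calls among at least 10 calls of a library. Fragments with a level in 8 or more VEH and 8 or more DDT libraries are called tested. DDT replicate 4 stood apart, with a level at 108 of the 761 exon_intron_boundary fragments where the other DDT libraries had one at 194 to 302, and DDT replicate 12 had the next lowest mean level over boundary fragments. DDT-against-VEH differences and counts over boundary fragments are also given without these libraries. Values of single fragments cover all libraries with a level unless stated.

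The 2 orders differed first in how often they could be measured. Of the exon_intron_boundary fragments 226 of 761 (29.7%) were tested, and of the intron_exon_boundary fragments 139 of 740 (18.8%), against 30.9% of the whole table. In single VEH libraries 30.7% to 39.0% of the former had a level, with a median of 35.0%, and 20.8% to 28.4% of the latter, with a median of 24.3%. The share was higher in exon_intron_boundary in 24 of 24 libraries, by 9.16 to 12.1 percentage points in VEH and by 3.52 to 11.4 in DDT, where the lowest value was that of DDT replicate 4.

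The share tested moved with the lengths of the neighbouring MspI fragments, but exon_intron_boundary had the higher share within each length class. A fragment in the table starts with the CGG of its MspI site, so the CpG of a cut site is counted with the fragment that follows it on the plus strand. In exon_intron_boundary that CpG lies on the exon side, and in intron_exon_boundary on the intron side. The MspI fragment just before had a median length of 323 bp in exon_intron_boundary and 578.5 bp in intron_exon_boundary, and the one just after 555 and 333.5 bp. Among boundary fragments over 100 bp, 74 of 135 (54.8%) were tested when the preceding fragment was 30 to 100 bp long and 16 of 883 (1.81%) otherwise. Over the whole table these shares were 35.7% and 2.87%. Of boundary fragments of 30 to 100 bp, 80.2% were tested after a fragment of 30 to 100 bp and 52.2% otherwise, or 169 of 263 (64.3%) in exon_intron_boundary and 106 of 220 (48.2%) in intron_exon_boundary. At this length the shares of the 2 orders were 83.9% and 72.0% after a fragment of 30 to 100 bp, and 58.9% and 45.1% otherwise.

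**Figure D1:**
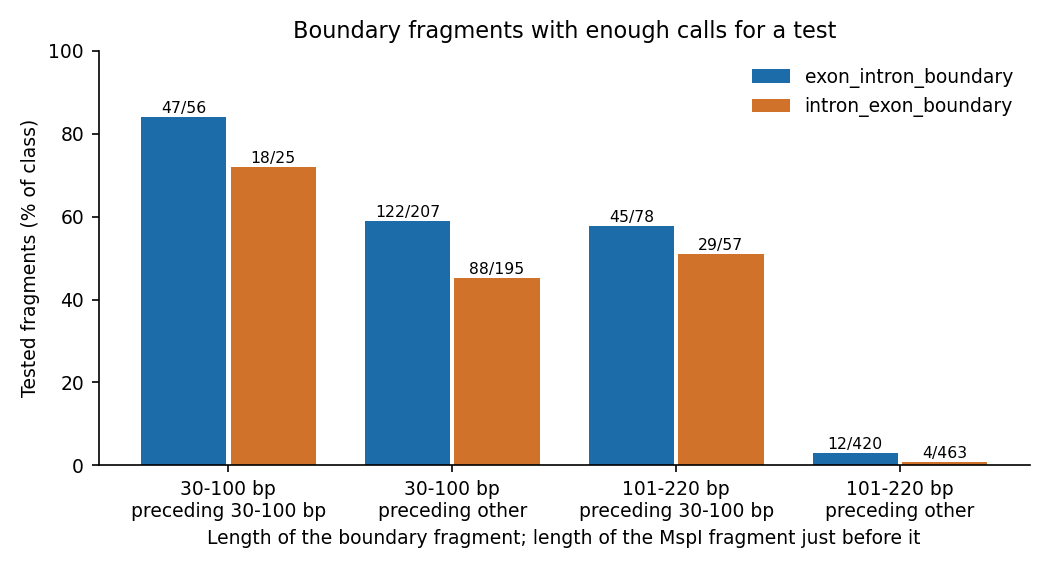
Percentage of boundary fragments tested (y axis, with the number tested of all above each bar), by the length of the fragment and of the MspI fragment just before it (x axis), for the 2 orders. Fragments over 100 bp were tested in 57.7% and 50.9% of cases after a fragment of 30 to 100 bp, and in 2.86% and 0.864% of cases otherwise.

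Methylation at tested boundary fragments was either high or low in most cases. The mean VEH level was over 80% at 183 of the 365 tested fragments, under 20% at 97 (26.6%) and between these at 85, with a median of 80.1%. In exon_intron_boundary the median was 85.1% and 122 of 226 (54.0%) were over 80%. In intron_exon_boundary the median was 66.6% and 61 of 139 (43.9%) were over 80%, while 45 (32.4%) were under 20%, against 52 (23.0%) in the other order. In the whole table, islands included, 61.0% of tested fragments were under 20%. The SD between VEH libraries was 2.92 percentage points at the median boundary fragment.

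These levels moved with the length of the fragment and of its neighbour, and that bears on the comparison of the orders. A read of 50 bases that starts at one end of a fragment of up to 49 bp reaches the cut-site CpG at the other end. In 30 pairs of adjacent fragments with a boundary fragment among them, where the first was 30 to 49 bp long and held 1 to 3 CpGs and the second was over 100 bp long, the 2 mean VEH levels added up to a median of 107%, and 6 pairs exceeded 120%. In 17 such pairs whose first fragment was 50 to 100 bp long, the sum had a median of 184% and 12 exceeded 120%. Over the whole table the medians were 104% in 177 pairs and 179% in 77 pairs. The sums spread widely, so a sum near 100% did not hold for each pair. The quartiles were 79.5% and 114% in the 30 pairs and 99.5% and 190% in the 17. They were 45.7% and 115% in the 177 pairs, of which 37 exceeded 120%, and 121% and 190% in the 77. The study's methods name adaptor and quality trimming of the reads. A step that removes the bases filled in at MspI ends is not named in the sources used here, and its part in these levels was not tested.

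**Figure D2:**
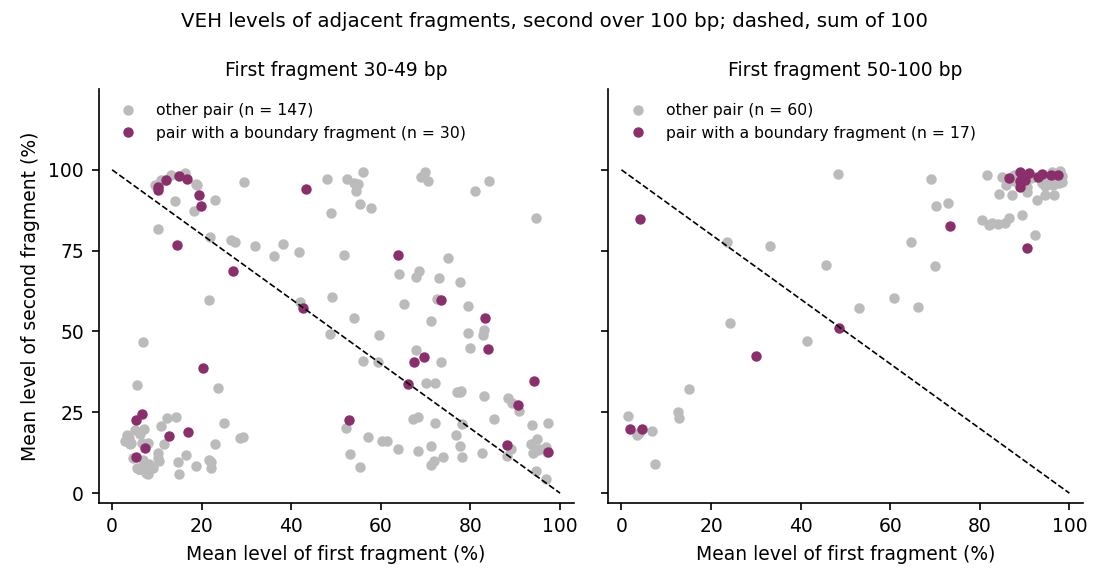
Mean VEH level of 2 adjacent fragments (x axis the first, y axis the second, both in %), for pairs whose first fragment held 1 to 3 CpGs and whose second was over 100 bp. The dashed line marks a sum of 100. Pairs with a boundary fragment had a median sum of 107% when the first fragment was 30 to 49 bp long, with single pairs on either side of the line, and of 184% when it was 50 to 100 bp long.

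Of the tested boundary fragments 140 were 30 to 49 bp long or followed such a fragment, 83 in exon_intron_boundary and 57 in intron_exon_boundary. Their mean level was 57.0% in exon_intron_boundary and 35.8% in intron_exon_boundary. Among the other 225 the means were 70.9% and 69.5%, and the medians 91.3% and 89.8%. Levels between 20% and 80% were found at 53 of the 140 (37.9%) and at 32 of the 225 (14.2%). In mean and median the orders thus lay closer to each other among the 225 than among the 140. This did not hold for the 64 of the 225 with a level in all 24 libraries. Over these, 42 in exon_intron_boundary and 22 in intron_exon_boundary, the difference of mean VEH level was -17.0 points.

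**Figure D3:**
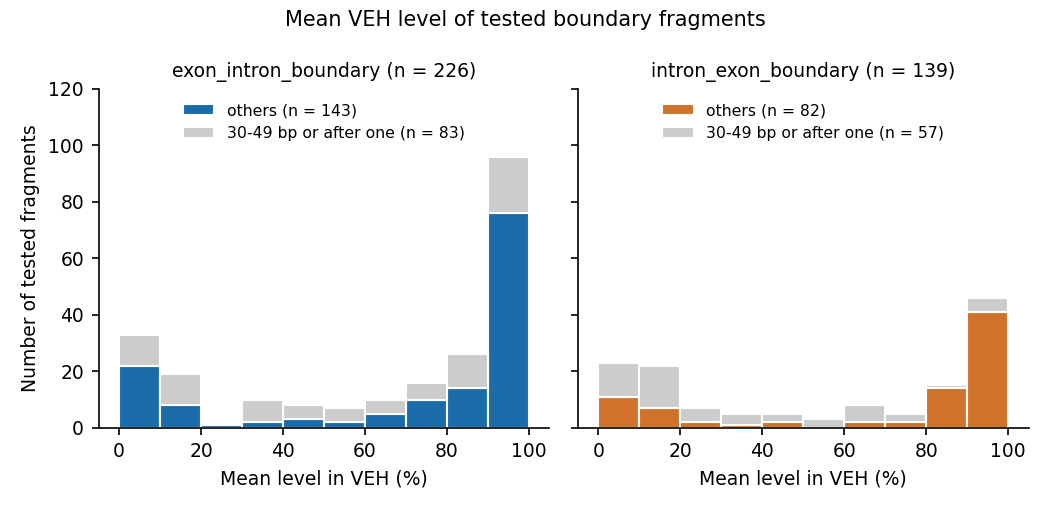
Number of tested boundary fragments (y axis) by mean VEH level in steps of 10% (x axis), one panel per order, with fragments of 30 to 49 bp and those that follow one in grey. Without the grey fragments the medians of the 2 orders were 91.3% and 89.8%.

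The libraries, not the fragments, were the replicates for a test of the orders, which used 72 exon_intron_boundary and 47 intron_exon_boundary fragments with a level in all 24 libraries. In VEH the mean level was 47.7% ± 0.967 (SD, n = 12) in the former and 43.8% ± 0.550 in the latter. The difference was 3.89 percentage points and positive in 24 of 24 libraries (exact two-sided sign-flip permutation test over 12 VEH libraries, p = 0.000488, the smallest it can give). This p covers the spread between libraries for a fixed set of fragments, and the set decided the sign. Over the 64 fragments of at least 50 bp that follow none of 30 to 49 bp the difference was -17.0, and over the 70 with at most 4 CpGs it was -1.95 (exact permutation test, p = 0.000488 for each). Over all 365 tested fragments, where a library without a level at a fragment does not count for it, the difference was 10.1. Without DDT replicate 4, which let 245 fragments enter, it was 9.83, and without DDT replicate 12 it was 6.74.

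Grouping the same fragments by splice site gave no steadier order. Donor fragments had a mean VEH level of 48.6% ± 0.890 (SD, n = 12) and acceptor fragments 53.4% ± 0.988, over 57 and 45 fragments, a difference of -4.73 points (exact two-sided sign-flip permutation test, p = 0.000488). It was -2.55 without DDT replicate 4 and 3.69 over the fragments of at least 50 bp that follow none of 30 to 49 bp. Among all tested fragments the median was 85.2% at 185 donors and 79.4% at 129 acceptors.

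Boundary fragments as a whole were more methylated than introns. Over fragments with a level in all 24 libraries their mean was 46.2% ± 0.780 in VEH (SD, n = 12), that of exon fragments 44.0% ± 0.610 and that of intron fragments 35.0% ± 0.726. The differences were 2.19 and 11.1 percentage points (exact two-sided sign-flip permutation test, p = 0.000488 for each). Over the fragments of at least 50 bp that follow none of 30 to 49 bp they were 7.60 and 15.3. With 1 value per gene they turned to -6.04 and -1.18, so their sign depended on how fragments of 1 gene were weighted.

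Base composition went with the level across the tested boundary fragments. Spearman's rho with the mean VEH level was -0.441 for the GC content and -0.332 for the number of CpGs over 365 fragments, and 0.108 for length. Over the 314 with a single edge of the named gene it was -0.0411 for the exonic share of bases and 0.201 for the exonic share of the CpGs within a read of 50 bases from either end. The latter share differs between the orders by the side of the cut-site CpG. Within exon_intron_boundary its rho was 0.119 over 190 fragments, and within intron_exon_boundary 0.0785 over 124. The fragments share libraries and depth, and neighbours share reads. In exon_intron_boundary the mean level was 79.7% with 1 or 2 CpGs, 69.1% with 3 or 4 and 43.6% with 5 or more, and in intron_exon_boundary it was 62.5%, 72.5% and 34.7%. The distance limit also went with the level: of boundary fragments 1000 to 2000 bp downstream of the gene start, just outside the rule, 29 of 35 tested were under 20% (median 9.37%), and of those 2001 to 3000 bp downstream, just inside, 7 of 16 (median 23.1%).

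The lowest and highest fragments were taken from the 119 that every library covered, and those at the low end held 3 to 18 CpGs. Dab2ip, which encodes a Ras GTPase-activating protein, had 10 CpGs in 53 bp and a VEH level of 1.06% to 2.21% with a median of 1.44%. The low exon_intron_boundary fragments also included Fpgs, the enzyme that adds glutamates to folates (mean 0.950% ± 0.919, SD, n = 12), Brd3, a bromodomain protein that reads acetylated histones (1.57% ± 0.473), and Trim44 (1.92% ± 1.16). In intron_exon_boundary the lowest were Ebf4, a transcription factor of the early B-cell factor family (1.29% ± 0.917), Kctd18 (1.67% ± 0.861), Nkx2-2, a homeobox factor (1.71% ± 0.553), and Ltk, a receptor tyrosine kinase (2.29% ± 2.36). All 8 lay outside annotated island cores by the rule, and Fpgs, Dab2ip, Brd3, Trim44, Ebf4, Kctd18 and Nkx2-2 were neither under 50 bp nor preceded by a fragment of 30 to 49 bp.

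The highest edges of the 119 held 3 to 7 CpGs. In exon_intron_boundary Kirrel, an adhesion protein of the nephrin family, ran from 97.6% to 99.8% in VEH with a median of 99.0%. Gpd2, the mitochondrial glycerol 3-phosphate dehydrogenase of BAT, had a mean of 97.6% ± 0.351 (SD, n = 12), and Itgav, the integrin alpha V chain, 98.0% ± 0.733. In intron_exon_boundary the highest were Aph1a, a subunit of gamma-secretase (98.6% ± 0.844), Mettl8, a methyltransferase of mitochondrial tRNA (97.1% ± 1.81), Agap1, a GTPase-activating protein for Arf (96.8% ± 1.18), and Tars2, the mitochondrial threonyl-tRNA synthetase (96.4% ± 0.758).

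Fragments nearest the median of their order, over those with a level in all 24 libraries, were at intermediate levels. In exon_intron_boundary these were Speg, a kinase of striated muscle (52.2% ± 5.25, SD, n = 12), 1700001O22Rik (45.0% ± 3.83) and Trim46 (40.6% ± 4.90), and in intron_exon_boundary Kif21b, a kinesin (27.3% ± 3.65), Mapk8ip1, a scaffold of JNK signalling (24.6% ± 4.02), and Pax1, a paired-box factor (22.7% ± 5.15). All of them except Speg followed a fragment of 30 to 49 bp.

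Other edges varied between litters. Hmcn2, which encodes the matrix protein hemicentin 2, ran from 15.5% to 52.6% in VEH with a median of 41.1%, in a 49-bp fragment with 1 CpG. Pacsin3, an adaptor in endocytosis, ran from 35.4% to 88.1% with a median of 77.8%, but without VEH replicate 2 its lowest level was 69.5% and its SD 6.77 in place of 14.4. Lmx1a, a LIM homeobox factor, ran from 11.1% to 54.2% with a median of 30.1%. In intron_exon_boundary Spint1, a protease inhibitor, ran from 16.6% to 47.4% with a median of 29.9%, and Ppfia4 from 5.48% to 27.7% with a median of 11.1%. Without VEH replicate 11 the highest level of Ppfia4 was 17.6% and its SD 3.12 in place of 5.63. Pacsin3, Spint1 and Ppfia4 each followed a fragment of 30 to 49 bp. Each fragment of this paragraph was chosen for its spread among the VEH libraries, and at each the DDT range overlapped the VEH range.

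Both sides of 1 exon were tested for 11 exons in 11 genes. The exon_intron_boundary side was higher in 6 and the other side in 5, with a median absolute difference of 8.41 points. The largest difference was at an 85-bp exon of Gpr155, a lysosomal cholesterol sensor, at chr2:73364168-73364252. Its donor fragment, 47 bp with 1 CpG, was at 8.26% to 22.0% in VEH (mean 15.04% ± 3.87, SD, n = 12), and its acceptor fragment at 95.6% to 100% (mean 98.0% ± 1.35). The difference was 74.9 to 91.7 points in each of 12 VEH libraries. In DDT the donor fragment was at 5.26% to 25.4% in 10 libraries, at 46.9% in replicate 12 and at 97.1% in replicate 4.

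At a 118-bp exon of Sgms2, which encodes a sphingomyelin synthase, the order was the opposite. The donor fragment of 37 bp had a VEH mean of 67.5% ± 4.15 (SD, n = 12), the acceptor fragment 40.6% ± 3.26, and the former was higher in 12 of 12 libraries. Both pairs began with a fragment under 50 bp. The 2 levels of a library added up to 108% to 119% in VEH for Gpr155 and to 104% to 113% for Sgms2, and the ratio of their calls was 0.602 to 0.912 and 0.987 to 1.02. At Kirrel, whose first fragment was 62 bp long, the sum was 190% to 195%.

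Smaller differences were found at exons of low level. In Rims1, a scaffold of the presynaptic active zone, the donor fragment had a VEH mean of 14.5% ± 3.55 and the acceptor fragment 2.60% ± 2.10 (SD, n = 12), and neither fragment was under 50 bp or followed one of 30 to 49 bp. In Capn2, a calcium-dependent protease, the donor fragment of 41 bp was at 3.24% ± 0.708 and the acceptor fragment at 14.2% ± 2.62.

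**Figure D4:**
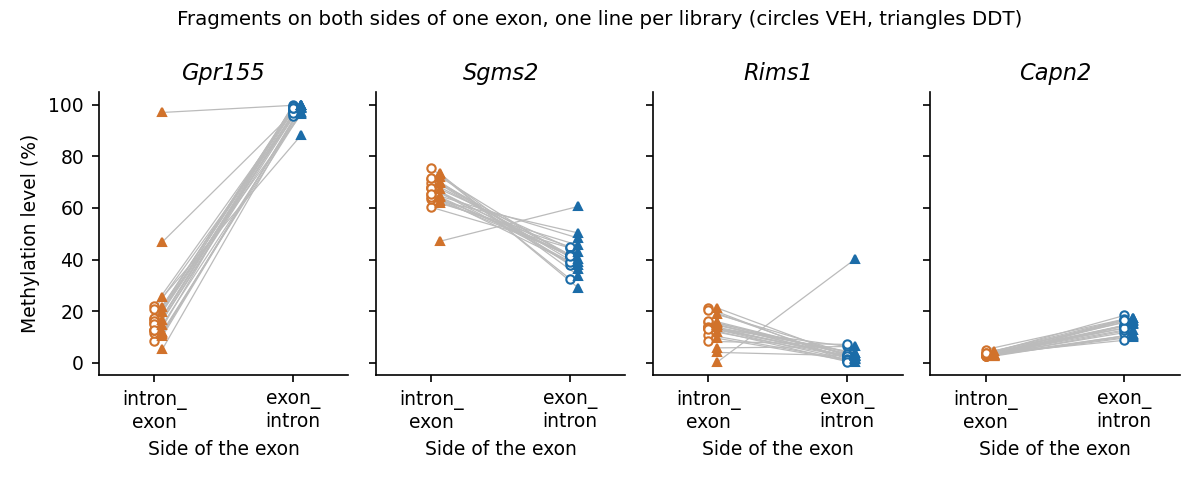
Methylation level in % (y axis) of the fragments on both sides of 1 exon in 4 genes (x axis), one line per library, with open circles for VEH and filled triangles for DDT. Gpr155 rose from 15.04% to 98.0% across its exon in the mean of VEH and Sgms2 fell from 67.5% to 40.6%, and the DDT library at 97.1% on the left side of Gpr155 is replicate 4.

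No boundary fragment passed the threshold for DDT against VEH. None of the 365 tested had an adjusted p under 0.05 (ANOVA F test, Benjamini-Hochberg over the 20225 tested fragments of the table, background 0% called), and the smallest adjusted p was 0.869. The count was 0 also with limma and with a quasi-binomial logistic regression. At an unadjusted p under 0.05 there were 8 (2.19%), 4 higher and 4 lower in DDT, where the background was 4.18% of all tested fragments, 1.25% higher and 2.93% lower. Of these 8, 5 were in exon_intron_boundary and 3 in intron_exon_boundary. The groups overlapped at each of the 365, as they did in the whole table. With 1 library left out the count was 7 to 16, or 1.92% to 4.52% of those tested, against a background of 3.70% to 5.38%. Without both DDT replicates 4 and 12 it was 17 (4.80%, background 4.51%), and with the quasi-binomial regression 30 (8.22%, background 7.72%).

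The mean over the 119 boundary fragments with a level in every library was 46.2% ± 0.780 in VEH and 45.6% ± 1.35 in DDT (SD, n = 12 each), a difference of -0.598 points that was smaller than the SD of either group (permutation test, two-sided, p = 0.203). It was -2.22 over the 365 tested fragments, with missing levels left out, and -4.55 with the calls of the 119 summed in each library (permutation test, p = 0.160 and 0.179). Over the tested fragments with a level, DDT replicate 4 had a mean of 42.4% in exon_intron_boundary and 40.1% in intron_exon_boundary. The other DDT libraries had 60.0% to 67.8% and 53.1% to 57.1%. Without DDT replicates 4 and 12 the difference between the groups was 0.00644 over 274 fragments (permutation test, p = 0.988). The excess of exon_intron_boundary over intron_exon_boundary was 3.89 points in VEH and 3.36 in DDT, and this difference of -0.529 points did not pass the threshold (two-sided permutation test, p = 0.0760). It passed with at least 20 calls, at -0.763 (p = 0.0181), and when VEH replicate 1, VEH replicate 8 or DDT replicate 8 was left out, at -0.604, -0.627 and -0.614 (permutation test, p = 0.0400, 0.0257 and 0.0406), and was -0.236 without DDT replicates 4 and 12 (p = 0.244). Single fragments were lower in DDT at 213 of 365 (58.4%), against 56.9% of all tested fragments.

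The 10 fragments with the smallest unadjusted p are given as a description, each with an adjusted p of 0.869. Pdcl3, a chaperone of the phosducin family, had 77.1% to 97.0% in VEH with a median of 88.9%, and 90.4% to 100% in DDT with a median of 95.0%, in the 10 DDT libraries with a level (ANOVA, unadjusted p = 0.00156). This 219-bp fragment follows one of 31 bp. Dst, a linker of cytoskeletal filaments, had 91.9% to 98.5% in VEH with a median of 94.5% and 95.7% to 100% in DDT with a median of 97.5%, at the 1 CpG of a 30-bp fragment (ANOVA, p = 0.00310). Nup188, a scaffold protein of the nuclear pore, had 79.9% to 89.0% in VEH with a median of 85.0% and 83.3% to 91.3% in DDT with a median of 89.0% (ANOVA, p = 0.00421). In these 3 fragments DDT was the higher group, and the ranges overlapped. With 1 library left out the difference of Nup188, 3.46 points, ran from 3.015 without VEH replicate 7 to 3.92 without DDT replicate 12. With the quasi-binomial regression the unadjusted p was 0.000678 for Pdcl3, 0.00436 for Dst and 0.0825 for Nup188.

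The other 7 moved less or spread more. Agap1 was at 96.8% ± 1.18 in VEH and 98.0% ± 1.22 in DDT. Lower in DDT were Ptpn18, a tyrosine phosphatase (4.85% ± 1.78 and 3.43% ± 0.516), Dido1, a PHD finger protein (62.9% ± 2.26 and 60.3% ± 3.32), Ttc16 (6.24% ± 1.17 and 4.84% ± 1.84), 2810403A07Rik (99.0% ± 1.12 and 96.5% ± 3.84) and Dll4, a ligand of Notch (96.6% ± 1.30 and 94.9% ± 2.66). Without DDT replicate 4 the difference of Dido1 was -1.87 points in place of -2.68, and that of Ttc16 -0.963 in place of -1.40. Vsig8, an immunoglobulin domain protein, was at 17.9% ± 5.90 in 9 VEH libraries and 27.1% ± 11.9 in 10 DDT libraries. Its unadjusted p was 0.0501 with the ANOVA and 0.819 with the quasi-binomial regression. Its highest DDT level, 54.2% in replicate 9, came from 24 calls, and its lowest, 11.3% in replicate 12, from 576. Relative to the VEH median, DDT libraries were higher in 10 of 10 for Pdcl3, 11 of 11 for Dst, 9 of 12 for Nup188, 10 of 12 for Agap1 and 9 of 10 for Vsig8. They were lower in 11 of 11 for Ptpn18, 11 of 12 for Ttc16, 9 of 12 for Dido1, 8 of 11 for Dll4 and 7 of 11 for 2810403A07Rik. The fragments were chosen by their p in these same libraries, so such counts follow in part from the choice and are no further evidence.

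**Figure D5:**
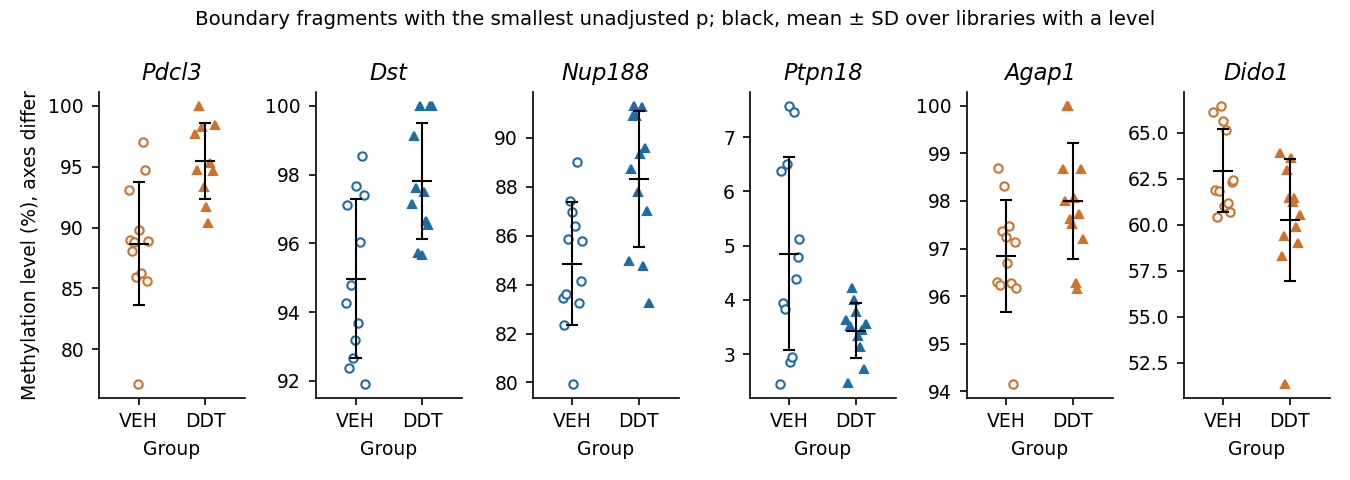
Methylation level in % (y axis, with its own range in each panel) of single libraries of VEH and DDT (x axis) for the 6 boundary fragments with the smallest unadjusted p, with the mean and SD in black. The groups overlap in each panel, and each adjusted p is 0.869.

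The gene lists chosen for description had few tested members. Of 24 collagen and fibronectin genes, 9 had boundary fragments and 2 a tested one: Col4a4, of basement membranes (94.6% ± 2.37 in VEH), and Col9a3, of cartilage (12.5% ± 2.79). Of 36 splicing genes, 5 had boundary fragments, and only Clk2, a kinase of splicing factors, was tested (95.0% ± 1.29). Among 46 genes listed for adipocyte differentiation and lipid handling 3 were tested, Nr1h3, the sterol-sensing nuclear receptor LXR alpha (17.8% ± 3.71), Lmx1a (30.01% ± 13.7), a factor known from neural development rather than from fat, and Lpin3, a phosphatidate phosphatase (93.0% ± 4.71). Of 38 genes listed for insulin and mTOR signalling 4 were tested, Igfbp2, Inpp5d, Rps6kc1 and Pdk1, between 89.7% and 98.2%. Pdk1 encodes a pyruvate dehydrogenase kinase of mitochondria, not the kinase of the insulin pathway that shares its name. Of 28 genes of DNA methylation 2 were tested, the de novo methyltransferase Dnmt3b (85.4% ± 9.91) and Ctcfl, a paralog of the insulator protein CTCF (79.6% ± 10.3). No fragment of these lists was at an unadjusted p under 0.05 (ANOVA), against the background of 4.18%.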

How the data were processed

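The authors digested DNA with MspI, sequenced single-end 50-bp reads, trimmed them with Scythe and Sickle, and aligned them to GRCm38 with Bismark 0.15.0 and Bowtie2. The deposited values are raw counts per MspI fragment, 1 count of methylated and 1 of unmethylated CpG calls per library, not normalized, with the authors' annotation. With its header the table has 65536 lines, and it ends at position 136670346 of chromosome 3. The rest was not analysed here, and 0 other sample columns were left unused. Members and gene lists were chosen with earlier results of these data known.

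A level was methylated calls over all calls, used from 10 calls, and 20225 fragments with 8 such libraries per group were tested (ANOVA F test, Benjamini-Hochberg, threshold 0.05). How levels entered the study's ANOVA, and its call minimum, are not given in the sources used here. Means per library were compared with exact sign-flip tests or two-sided permutation tests of 100000 resamples, and p-values cover the spread between litters. Calls come from amplified reads without molecular identifiers and are not independent molecules. Exon edges came from GENCODE M21 and sequences from RefSeq GRCm38. Where a fragment had several GENCODE edges or none, no splice site was given.

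The fragments named are the 10 with the smallest p, the 4 lowest, 4 highest and 3 nearest the median of each order, the 3 with the largest SD in VEH, the 4 exons with the largest difference between their sides, and the lowest and highest of each list. Besides these, Pdk1, Inpp5d and Lmx1a are named as tested list members, and Lhx6 for the sum of its levels. One fragment that this rule names is not reported here. Tests were run on simulated calls. Alternatives were other call and library minimums, summed calls, 1 value per gene, fragments outside shores and shelves, fragments with a GENCODE edge, limma on log2 ratios of calls, quasi-binomial regression, a depth covariate, a replicate block, and each library left out. After the data were seen, the donor and acceptor grouping, fragments of 30 to 100 bp, those with at most 4 CpGs, those of at least 50 bp that follow none of 30 to 49 bp, and leaving out DDT replicates 4 and 12 were added. The software was limma 3.58.1 in R 4.3.3 and, in Python 3.11.15, SciPy 1.17.1, NumPy 2.4.6, matplotlib 3.10.9 and pandas 2.3.3.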

Additional observations from a re-analysis of the deposited data

How the results depend on the processing

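The difference between the orders depended on which fragments entered, and the cause was not tested. The excess of exon_intron_boundary was 10.1 points over the 365 tested fragments, 1.57 points with summed calls (two-sided permutation test, p = 0.0669), -1.95 with at most 4 CpGs and -17.0 over fragments of at least 50 bp that follow none of 30 to 49 bp, and ran from 2.98 to 9.83 with 1 library left out, the highest without DDT replicate 4. Donor minus acceptor was -0.257 with at least 5 calls (permutation test, p = 0.132), 12.5 with summed calls, 4.97 with at most 4 CpGs and 3.69 over fragments of at least 50 bp that follow none of 30 to 49 bp, and ran from -5.40 to -2.55 with 1 library left out. Boundary fragments minus exons gave -2.23 with summed calls and -6.04 with 1 value per gene, where minus introns gave -1.18, and with 1 library left out they ran from 1.61 to 2.56 and from 10.04 to 11.5.

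The DDT difference over boundary fragments ran from -0.764 to -0.246 with 1 library left out. It was -2.22 over the 365 tested fragments, -4.55 with summed calls, -1.01 over fragments of at least 50 bp that follow none of 30 to 49 bp and 0.00644 without DDT replicates 4 and 12, and was past the threshold in none of these. Its difference between the orders was -0.763 with at least 20 calls and -1.37 with summed calls, and ran from -0.627 to -0.354 with 1 library left out. No alternative called a fragment at an adjusted p under 0.05. The count of 8 at an unadjusted p (2.19%, background 4.18%) became 13 with at least 5 calls (3.12%, background 4.20%), 4 with a level in every library (3.36%, background 4.24%), 30 with quasi-binomial regression (8.22%, background 7.72%), 5 over fragments of at least 50 bp that follow none of 30 to 49 bp (2.22%, background 4.18%) and 17 without DDT replicates 4 and 12 (4.80%, background 4.51%). With 1 library left out it ran from 7 to 16, with 14 without VEH replicate 4, 13 without VEH replicate 9 or DDT replicates 2 or 12, 16 without DDT replicates 5 or 11, 15 without DDT replicate 7 and 14 without DDT replicate 10.

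Replicate numbers did not pair the samples: over 12 pairs the correlation of deviations ran from -0.180 to 0.199, 3 were over 0.1, and 1 library correlated best with its own number. With the replicate block the count was 12 (3.29%, background 4.12%), the DDT difference -0.598 (exact sign-flip permutation test, p = 0.285) and the difference between orders -0.529 (p = 0.111). The comparison covers the 24.3% of boundary fragments that were tested.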
